A study of Mus musculus with 2 samples.

Results

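The miR-30 family was followed in the mouse mandible between embryonic day E10.5 and E11.5. The members are the 5 mature miRNAs mmu-miR-30a, mmu-miR-30b, mmu-miR-30c, mmu-miR-30d and mmu-miR-30e, here written without the species prefix. They were taken by name from the array, which carries 1080 miRNAs in all, and all 11 of their probes were kept. Embryos were of the outbred ICR strain, the dissected tissue was the medial mandibular arch, and the labels name no allele or agent at either stage. Each stage is 1 pool of 40 embryos, read on 1 Agilent array with a single dye. Nothing was replicated, no difference was tested, and errors are the spread over repeated spots of a probe within an array.

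MicroRNAs pair with messenger RNAs through their seed, bases 2 to 8 from the 5′ end, and repress them. miR-30 miRNAs are made from several genes, share 1 seed and differ mainly in their 3′ part. They are broadly expressed in mesenchymal and epithelial tissues, and elsewhere they are known to restrain epithelial-to-mesenchymal transition and bone cell differentiation and to act in muscle cell fate.

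The mature sequences show what the members share and where a probe can tell them apart. They come from RefSeq (GRCm38.p6), where 3 of the 5 members were matched, and the seed is in capitals.
miR-30a: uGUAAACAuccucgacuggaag
miR-30c: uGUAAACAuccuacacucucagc
miR-30e: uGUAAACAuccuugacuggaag
The first 12 bases of these 3 miRNAs are identical. miR-30a and miR-30e differ at 1 of 22 bases, C13U counted from the 5′ end with the base of miR-30a first, whereas miR-30c differs from each of them at 5 of the 22 bases compared. The probes read mainly the part beyond the seed. Each probe below is written 5′ to 3′ as deposited, with the bases that pair with the seed in capitals.
miR-30a, 15-base probe: cttccagtcgaggaT
miR-30a, 16-base probe: cttccagtcgaggaTG
miR-30a, 17-base probe: cttccagtcgaggaTGT
miR-30c, 17-base probe: gctgagagtgtaggaTG
miR-30c, 18-base probe: gctgagagtgtaggaTGT
miR-30e, 16-base probe: cttccagtcaaggaTG
miR-30e, 17-base probe: cttccagtcaaggaTGT
These probes read from base 6, 7 or 8 of the miRNA to its last base, and so at most 3 of the 7 seed bases. Probes of 1 miRNA thus differ only in length at the 3′ end of the probe. Set against the complement of miR-30a, every miR-30e probe has 1 mismatch, as does every miR-30a probe against miR-30e. The miR-30d probes, of 13 and 14 bases, have 1 mismatch to the complement of miR-30a and 2 to that of miR-30e. The 16- and 17-base probes of miR-30b have 4 mismatches to miR-30c and 7 to miR-30a or miR-30e in the best placement without gaps. Whether a probe also reads another member was not tested.

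The 5 miRNAs come from 3 pairs of neighbouring genes. In mm9, the build of the scanner files, the longest miR-30a probe maps to chr1:23279119-23279134, and that of miR-30c maps both to chr1:23298558-23298575, 19.4 kb away, and to chr4:120442160-120442177. The miR-30e probe maps to chr4:120445233-120445248, 3.06 kb from the second miR-30c site. miR-30c therefore has 2 genes, 1 beside miR-30a and 1 beside miR-30e, and its signal cannot be divided between them. miR-30b and miR-30d form the other pair, at chr15:68169003-68169018 and chr15:68172790-68172802, with 3.77 kb between them. Except for miR-30c, the span the files list is 1 base shorter than the probe. In the GRCm38.p6 gene table the genes of miR-30e and of its neighbour miR-30c-1 lie within the span of Nfyc, which encodes a subunit of the transcription factor NF-Y, and no gene of the table spans the other 4.

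All 5 members were detected at both stages. Detection of a probe required that 50% or more of its spots stood well above background, leaving out spots that the software had marked as outliers. The whole array had 144 detected miRNAs at the earlier stage and 199 at the later, of which 137 had a probe detected on both arrays. Since E11.5 was the brighter array, intensities were scaled to the 75th percentile of the 218 probes that passed on both, and this took 1.31 off every log2 difference. The tissue was checked with marker miRNAs. Detected markers went from 3 to 4 of 5 for mesenchyme, from 4 to 5 of 7 for epithelium, from 1 to 2 of 5 for blood, from 0 to 1 of 3 for neural cells and from 0 to 4 of 4 for muscle, and stayed at 1 of 2 for endothelium. As scaled, the log2 differences had a median of -1.37 over the 4 epithelial markers measured at both stages (all of them lower later) and of 0.08 over the 3 mesenchymal ones. Endothelial miR-126-3p was at -0.81 and miR-451, a marker of red blood cells, at -0.60. The scaling took 1.31 off each of these marker values too, so their signs depend on it. Whether cell make-up changed, and its part in the miR-30 values, was not tested. In pooled tissue fewer cells of a type cannot be told apart from less RNA per cell.

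Before scaling, each of the 11 miR-30 probes had a higher mean intensity at E11.5 than at E10.5. All 5 members were brighter at E11.5, as were 90.5% of the 137 miRNAs measured at both stages. Of the 7 member probes detected on both arrays, 6 had every spot brighter at E11.5 than every spot at E10.5, against 80.7% of the 218 probes detected on both arrays. A rise in raw brightness was therefore shared with most miRNAs measured at both stages. Without scaling, 4 of the 5 members exceeded 2-fold where 64.2% of the 137 did. The members are described next in turn, by gene pair, from these unscaled intensities.

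miR-30a is read by 3 probes. The 17-base probe gave 121 ± 5.66 (SD over 12 spots) at E10.5 and 281 ± 17.0 (13 spots) at E11.5. The 16-base probe gave 54.8 ± 8.20 and 140 ± 12.8 (13 spots each). The spots of the stages did not overlap in either, and E11.5 was the brighter by 2.32-fold and 2.56-fold. The 15-base probe was not well above background at E10.5, at 15.6 ± 5.65, and reached 41.9 ± 6.03 at E11.5 (14 spots each), where 13 of the 14 spots were well above background.

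miR-30c, the miRNA with a gene beside miR-30a and another beside miR-30e, gave 99.1 ± 5.46 (16 spots) at E10.5 and 272 ± 20.3 (20 spots) at E11.5 with its 18-base probe. Its spots ran from 90.2 to 107 at E10.5 and from 235 to 306 at E11.5, a gap with no overlap. Its 17-base probe was not well above background at E10.5 (13.6 ± 6.17, 20 spots) and gave 33.6 ± 5.11 (20 spots) at E11.5. The 18-base probe was 2.74-fold brighter at E11.5, a larger ratio than that of either miR-30a probe measured on both arrays.

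miR-30e, encoded in Nfyc, had the largest raw ratio of the family. Its 17-base probe gave 42.2 ± 6.13 (20 spots) at E10.5 and 132 ± 7.54 (18 spots) at E11.5, a 3.13-fold difference, with spots from 31.6 to 54.0 and from 119 to 146. Its 16-base probe averaged 7.56 over 14 spots at E10.5, with none above 12.2. The negative control spots of that array averaged 7.87 ± 6.16 (SD over 1000 spots). The same probe was at 30.1 ± 6.04 (19 spots) at E11.5, where 11 of the 19 spots were well above background. Neither pair of spot ranges overlapped.

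miR-30b, of the chromosome 15 pair, was barely detected at E10.5. Its 17-base probe gave 31.4 ± 5.72 there, with 10 of 19 spots well above background, and 72.4 ± 6.63 (19 spots, all well above background) at E11.5, a ratio of 2.31. Its 16-base probe stayed below detection on both arrays, at 3.02 ± 3.44 and 7.66 ± 4.01 (18 spots each). The miR-30b value below thus rests on a single probe whose E10.5 level lay beside the lowest detected probe of that array (30.9).

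miR-30d, its neighbour, was the member whose probes disagreed. The 13-base probe gave 47.4 ± 5.75 at E10.5 and 55.0 ± 5.72 at E11.5 (20 spots each), and its spots, from 38.6 to 61.4 and from 41.6 to 62.7, overlapped almost throughout. The 14-base probe, longer by a single base, gave 35.3 ± 6.39 (18 spots) and 75.8 ± 5.42 (20 spots), with spots from 23.1 to 44.8 and from 64.9 to 86.4 that did not overlap. In raw intensity E11.5 was thus 1.16-fold higher with the first and 2.14-fold higher with the second.

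**Figure D1:**
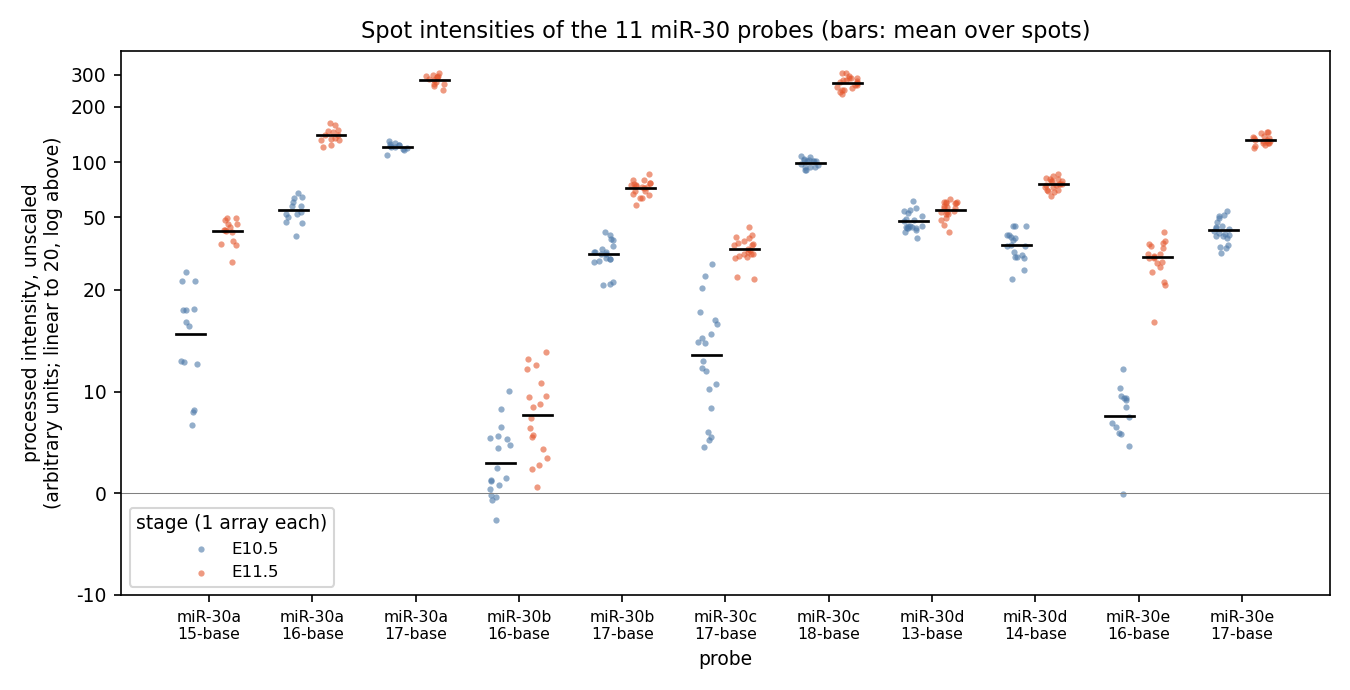
Unscaled processed intensity (arbitrary units, linear up to 20 and logarithmic above) of every spot of the 11 miR-30 probes at E10.5 (blue) and E11.5 (orange), 1 array per stage, with outlier spots left out and bars at the mean. The E11.5 mean is the higher for every probe, and the 13-base miR-30d probe is the one detected on both arrays whose spots overlap between the stages.

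After scaling, the family lay in the middle of the 137 miRNAs measured at both stages. miRNAs detected at a single stage have no place in this order. Relative to the other miRNAs, miR-30e had the highest scaled log2 difference (E11.5 minus E10.5) of the family, 0.33 ± 0.051 (spot SE), and miR-30c followed at 0.14 ± 0.031. miR-30a was at -0.03 ± 0.038 and miR-30b at -0.11 ± 0.068, and miR-30d was lowest at -0.66 ± 0.042. The family median was -0.03 and the median over all 137 miRNAs -0.07. No member was 2-fold apart in either direction, where 17.5% of the 137 miRNAs were (3.65% higher and 13.9% lower at E11.5). From the highest of the 137, miR-30e stood at rank 34, miR-30c at 54, miR-30a at 67, miR-30b at 71 and miR-30d at 98.

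The sign of a scaled difference depends on the scaling, which sets where 0 lies. All 5 members were above 0 when scaled to control probes or to all probes at their 75th percentile, or not scaled. Under quantile normalization miR-30a and miR-30b were also above 0, as was miR-30a with median scaling. Outside the scaling choices, miR-30a was above 0 with the software's gene detection flag (0.02) and in the deposited value table (0.04). In the other direction, all 5 were below 0 with normexp background correction (miR-30e at -0.23, miR-30c at -0.0486). Normexp is a model of local background with an offset of 50 added. An added offset shrinks the unscaled log2 difference of a dim probe more than that of a bright one. Its part in these signs was not tested. With the total gene signal, miR-30c was at -0.0258. All 5 were also below 0 with all probes kept and floored at the lowest detected one (miR-30e at -0.51, miR-30c at -0.53). There a probe at the floor on both arrays gets a fixed negative value, and the median of all miRNAs was -1.38. The signs of members with undetected probes thus partly follow from the floor in that setting. The place of a member against the median miRNA is not moved by any common factor. On that measure miR-30e was 0.40 above the median of all miRNAs, miR-30c 0.21 above and miR-30a 0.04 above, while miR-30b was at -0.04 and miR-30d at -0.59 relative to it. miR-30e and miR-30c stayed above that median in all of the 13 and 14 alternatives that gave them a value. miR-30d stayed below it in 12 of 13, the exception being the setting with no detection filter. miR-30a and miR-30b changed sides in 2 settings each, as their closeness to the median allows. These counts include the alternatives that only change the scaling factor (all probes, median, control probes or no scaling). Those could not move a member against the median, so only the other alternatives bear on its place.

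**Figure D2:**
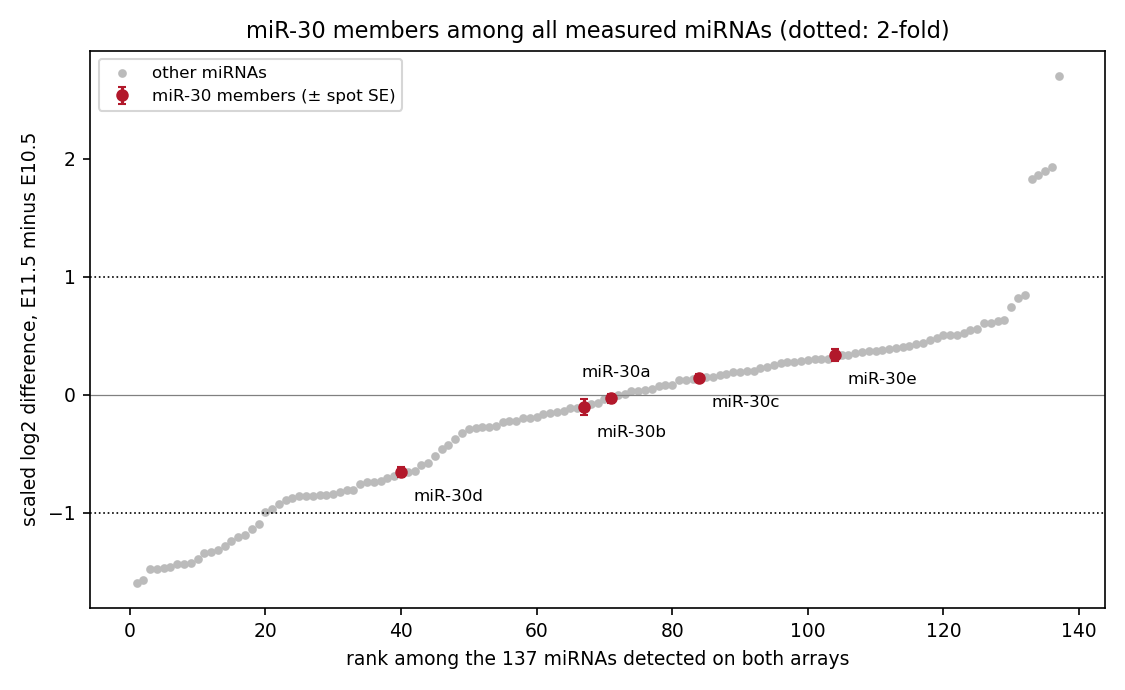
Scaled log2 difference between the stages (E11.5 minus E10.5) for the 137 miRNAs measured at both stages, ordered from the lowest to the highest, with the 5 miR-30 members in red (bars, ± spot SE) and dotted lines at 2-fold. The members lie between -0.66 and 0.33, inside the dotted lines.

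Differences between members show whether the family moved as a unit, and a common scaling factor cancels in them. The range from miR-30d to miR-30e was 0.99 on the log2 scale, or 1.99-fold. Neighbours in the order were closer. miR-30a and miR-30b differed by 0.08 ± 0.078, no more than their spot SE. miR-30e exceeded miR-30c, its neighbour in Nfyc, by 0.19 ± 0.060, and miR-30a was below miR-30c, its neighbour on chromosome 1, by a difference of -0.17 ± 0.049. These gaps of 1.14-fold and 1.13-fold are about 3 times their spot SE, which does not hold variation between pools, labelling reactions or arrays. With normexp background correction miR-30e was below miR-30c by -0.18, so the order within that pair is not settled by these arrays. The offset of 50 added there weighs more on the dimmer miR-30e probe (42.2 at E10.5) than on that of miR-30c (99.1). Its part in the changed order was not tested.

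The chromosome 15 pair was further apart, with miR-30b above miR-30d by 0.55 ± 0.079. This gap followed the choice of miR-30d probe. With the 13-base probe alone, where miR-30d was at -1.10 ± 0.052, it was 0.99, and with the 14-base probe alone, where miR-30d was at -0.21 ± 0.066, it was 0.11. With that probe the 5 members spanned 0.55 in place of 0.99. Under detection by every spot only the 13-base probe remained, miR-30d was at -1.23 and passed 2-fold, and miR-30b was not measured.

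The 2 miR-30d probes differed by 0.89 in their log2 differences. Among the 80 miRNAs with over 1 probe measured at both stages, the median spread between probes was 0.06, and miR-30d had the second largest after miR-483* (1.08). The next, miR-181d, was at 0.33. The miR-30a probes differed by 0.14 (rank 14 of 80). Over the array such differences had no common direction with length. Of the 80 miRNAs, the longest probe had the higher log2 difference in 43 and the lower one in 37, with a median of 0.0027 for longest minus shortest.

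**Figure D3:**
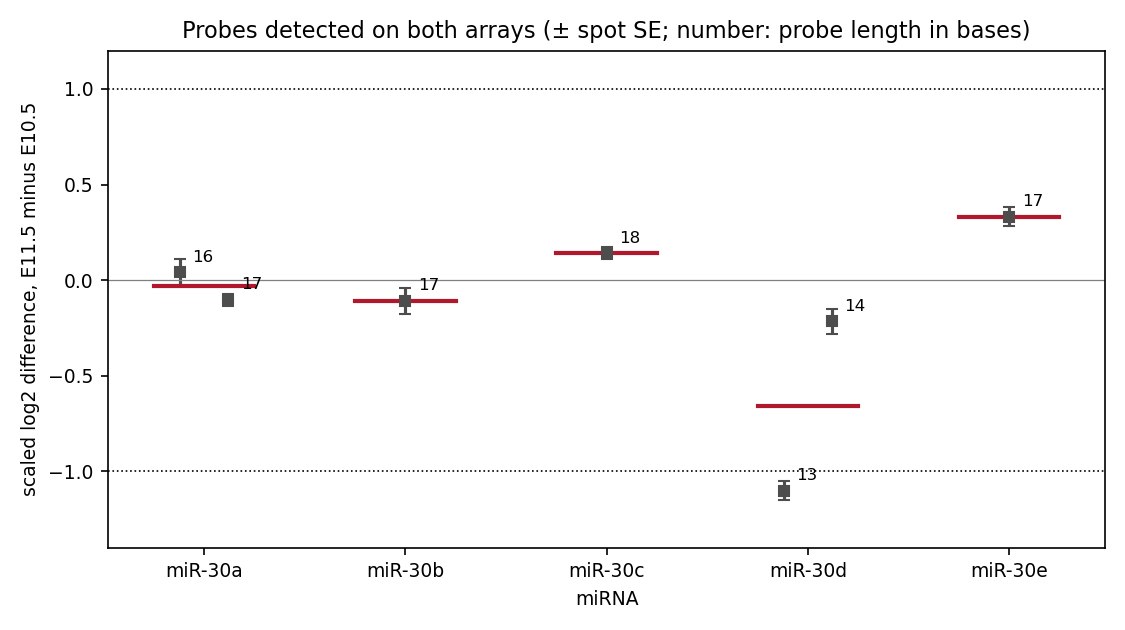
Scaled log2 difference (E11.5 minus E10.5) of each of the 7 miR-30 probes detected on both arrays (squares, ± spot SE, with the probe's length in bases) and the value of the miRNA (red line, mean of its probes), with dotted lines at 2-fold. The miR-30d probes lie at -1.10 and -0.21, while the miR-30a probes lie at 0.04 and -0.10.

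The other arms of the same hairpins, marked with an asterisk and usually less abundant than the members, were on the array under 6 names with 18 probes. None was detected at E10.5. At E11.5, miR-30e* and miR-30a* were detected, and the arms of miR-30b, miR-30d and both miR-30c genes were not well above background. The 2 detected arms are nearly the same molecule and have a seed of their own, shown in capitals (RefSeq, GRCm38.p6).
miR-30a*: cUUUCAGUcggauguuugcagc
miR-30e*: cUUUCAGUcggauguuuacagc
They differ at 1 of 22 bases, G18A from miR-30a* to miR-30e*. The 18-base probe of miR-30e* gave 27.6 ± 7.66 (20 spots, of which 7 well above background) at E10.5 and 63.2 ± 4.71 (15 spots) at E11.5, and the spots did not overlap. A fold against a stage without detection is a lower bound, taken against that array's lowest detected probe. The miR-30e* bound was 2.04-fold without scaling, and as scaled there was none above 1. The 17-base miR-30a* probe gave 13.7 ± 4.77 (16 spots) at E10.5 and 30.5 ± 5.39 (20 spots, 12 well above background) at E11.5, with no bound above 1 on either scale.

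The authors' deposited table, which holds 1 value per miRNA on a linear scale, gave the same order. It comes from the same arrays, so it is not an independent measurement. In the authors' deposited table miR-30e went from 20.9 at E10.5 to 32.2 at E11.5, miR-30c from 47.9 to 60.8, miR-30a from 58.0 to 59.5, miR-30b from 15.6 to 14.1 and miR-30d from 40.4 to 26.3. Log2 differences in the authors' deposited table were 0.63, 0.34, 0.04, -0.14 and -0.62 in that order. How the authors' deposited table was normalized is not given in the sources used here. miR-30e* is above its lowest value at both stages there (14.1 and 16.6), and miR-30a* at E11.5 (10.2).

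The let-7, miR-15/16 and miR-181 families, each with several genes, were set beside miR-30 as descriptions, on the same scaled log2 differences. The 6 measured let-7 members, all above 0, had a median of 1.88 and spanned 1.85 between them, from let-7e at 0.85 to let-7d at 2.70. The 4 measured miR-15/16 members, of which 3 were below 0, had a median of -0.78 and spanned 1.01, from miR-15b at -0.84 to miR-322 at 0.18. miR-181b was at -0.33 and miR-181d at 0.01, the 2 measured members of their family. By the measured members, miR-30, with 2 above 0 and 3 below, thus lay between let-7 and miR-15/16 and near miR-181. The array carries 9 let-7, 6 miR-15/16 and 4 miR-181 members, and all were detected at E11.5. Those not detected at E10.5 have no value, so the medians of these 3 families leave them out. The miR-30 members spanned 0.99, or 0.55 with the 14-base miR-30d probe alone.

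The 5 miRNAs whose pair of scaled log2 levels lay nearest to the median pair of the miR-30 members (-2.20 for E10.5, -1.86 for E11.5), which is miR-30e's own pair, were miR-411, miR-362-5p, miR-379*, miR-376c and miR-369-5p. Likeness here is the distance between 2 pairs of array signals, over 2 samples, and levels of different probes are not amounts of RNA. Their distances ran from 0.022 to 0.15, and their log2 differences from 0.20 (miR-376c) to 0.37 (miR-369-5p). They are thus neighbours of miR-30e, at 0.33, and not of the family's median difference of -0.03.

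**Figure D4:**
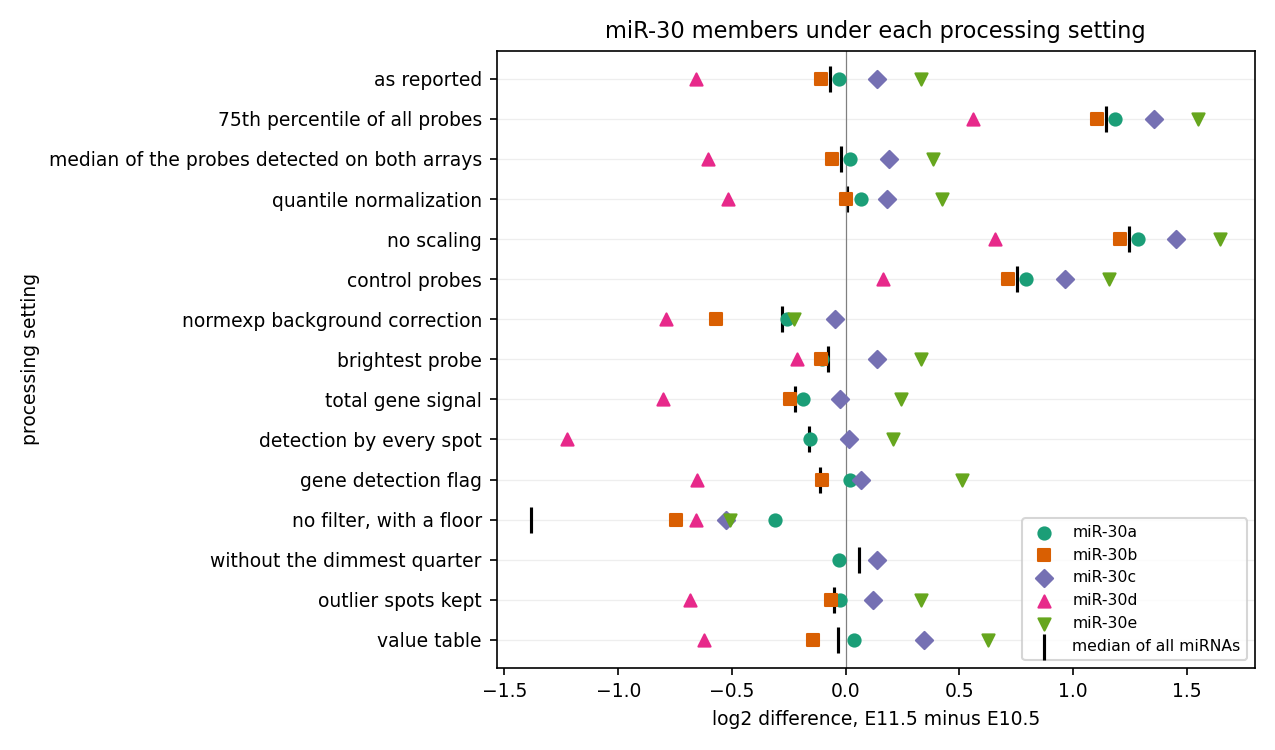
Log2 difference between the stages (E11.5 minus E10.5) of each miR-30 member under the reported processing and 14 alternatives, with a black tick at the median of all miRNAs measured in that setting. miR-30d was the lowest measured member in 13 of the 15 settings and miR-30e the highest in 12. Both counts include the reported processing and the alternatives that only change the scaling factor (all probes, median, control probes or no scaling). Such alternatives shift the whole group and could not change the order of the members, so only the other alternatives bear on it. Among the latter, leaving out the dimmest miRNAs left values for miR-30c and miR-30a only.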

How the data were processed

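Per the labels' protocols, total RNA was labelled with Cy3. The authors deposited spot intensity values from the scanner software, with background subtracted and a spatial trend removed but without normalization between arrays, per the file headers. The software version in these headers is Feature Extraction 10.7.1.1, with mm9 as the build and 031184 as the array design, whereas the submitters' processing notes name version 9.5.1.1. Spot flags are also deposited. The scaling of the deposited value table is not given in the sources used here.

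Outlier spots were left out (16 of 200 member spots on the earlier array and 6 on the later), and no member spot was saturated. Log2 differences (later minus earlier stage) were averaged over a miRNA's probes that were detected on each array. SEs come from spots, and the number of arrays limits the precision. With 1 sample per stage nothing was tested, and counts used a 2-fold threshold. The members and lists were chosen with earlier results of these data known. The text names all members and their other arms, the 5 miRNAs nearest in level and the extremes of the lists. Scaling, averaging over probes and the 2-fold count were tested on simulated data. In these every probe passed detection and no spot was an outlier, so the detection filter and outlier removal were not tested. Alternatives covered scaling, background, probe choice, detection, outlier spots and the value table. Those on single miR-30d probes, and those leaving out miR-30b or miR-30d, were added after the values were seen. Python 3.11.15, numpy 2.4.6, pandas 2.3.3, matplotlib 3.10.9, R 4.3.3 and limma 3.58.1 were used.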

Additional observations from a re-analysis of the deposited data

How the results depend on the processing

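A value counted as moved where it left its spread, which is the SD over spots for a miRNA or gap and the SD over members for the family. Counts past 2-fold have no spread. The member count of 0 moved with any other count, and the count over all miRNAs moved when it changed beyond a set ratio. The family median (-0.03) was 1.28 unscaled, 1.18 when scaled to the 75th percentile of all probes, 0.79 when scaled to control probes and -0.53 with all probes kept and floored at the lowest detected one. It was 0.05 without miR-30d and also without miR-30b. Its distance from the median of all miRNAs (0.04) was 0.86 with all probes kept, where most miRNAs stand at the floor, and ran from -0.0251 to 0.13 otherwise. Members at least 2-fold apart (0) numbered 4 unscaled, 4 on the percentile of all probes, 1 on control probes (miR-30e) and 1 under detection by every spot (miR-30d). The shares over all miRNAs in those settings were 64.2%, 58.4%, 35.8% and 20.2%, against 17.5% as reported. The count over all miRNAs (24 of 137) was 88, 80 and 49 in the first 3 of those settings. Every call there was higher at E11.5, against 5 of 24 as reported. The count was 37 of 169 with the value table and 944 of 1080 with all probes kept. In the latter a miRNA at the floor on both arrays stood at -1.38 and so counted. The miR-30b minus miR-30d gap (0.55) was 0.11 with the brightest probe or the 14-base probe, 0.99 with the 13-base probe and -0.0886 with all probes kept. The miR-30e minus miR-30c gap (0.19) was -0.18 with normexp, and the miR-30a minus miR-30c gap (-0.17) was 0.22 with all probes kept. Gaps with all probes kept include probes held at the floor. When the dimmest 25% of miRNAs were left out, miR-30b, miR-30d and miR-30e had no value. The causes were not tested. No paired analysis was possible because each stage has 1 array. Signal over background limits miR-30b and the shorter probes at E10.5.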
